A study of Mus musculus with 2 samples.

Results

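The regions described here are the very wide DNase I hotspots of the embryonic mouse midbrain that both replicates share. DNase-seq maps accessible chromatin by cutting nuclei with DNase I and sequencing the cut ends. A hotspot is a stretch of raised cutting called by the authors, and a peak is a 150 bp site of concentrated cutting inside it. A hotspot of replicate 1 was taken as a member where it was 1500 bp or wider and overlapped, by 1 bp or more, a replicate 2 hotspot that was also 1500 bp or wider. On chromosomes 1 to 19, 3316 of the 262897 replicate 1 hotspots met this rule, or 1.26%, and together they covered 6.85 Mb. The members were thus selected on their widths in both replicates, and widths are given as a description and support nothing else. The study has 1 group of 2 biological replicates, midbrain tissue from healthy B6NCrl embryos at embryonic day 11.5. Male and female embryos were pooled, and both replicates carry the same donor label. Dissected tissue at this age holds dividing neural progenitors, young neurons and cells of vessels, blood and mesenchyme, and the labels name no sort. No control or second tissue is in the series, so no difference between conditions was tested, and values are set side by side with those of narrower hotspots of the same libraries. Because dissected tissue was used, a site open in few cells and a site weakly open in many cells cannot be told apart.

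Most of the mammalian genome is depleted of the dinucleotide CpG, because methylated cytosine is lost by mutation over time. CpG islands are stretches that escaped this loss. They mark the transcription start sites (TSSs) of nearly all housekeeping genes and of many developmental regulators, are usually unmethylated, and are bound by Sp and Klf factors and by proteins with a CXXC domain. Wide open regions at such starts typically hold several separate factor-bound sites and not a single long one. The ratio of observed to expected CpG, called the CpG ratio here, is near 1 where no CpG has been lost and far lower in bulk genome.

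The sequences below show what the members are made of. They are the strongest peaks, by the mean deposited signal of both replicates among peaks outside annotated untranslated exons, in the 6 widest members at a protein-coding TSS and in the 2 widest distal ones. All are on the plus strand of mm10, 5′ to 3′, with each CpG in capitals. At the TSSs, the peaks lie upstream of the gene and outside protein-coding transcripts: Tnrc18 (chr5:142817796-142817945, 209 bp upstream), Pcdh7 (chr5:57715836-57715985, 2056 bp upstream), Mex3b (chr7:82866196-82866345, 1062 bp upstream), Bahcc1 (chr11:120232776-120232925, 96 bp upstream), Marcks (chr10:37140956-37141105, 2111 bp upstream) and Zic2 (chr14:122474196-122474345, 1164 bp upstream). Distances run from the peak's midpoint.
Tnrc18: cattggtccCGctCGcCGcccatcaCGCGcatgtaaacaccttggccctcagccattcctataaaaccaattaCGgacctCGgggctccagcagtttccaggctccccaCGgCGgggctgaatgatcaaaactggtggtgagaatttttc
Pcdh7: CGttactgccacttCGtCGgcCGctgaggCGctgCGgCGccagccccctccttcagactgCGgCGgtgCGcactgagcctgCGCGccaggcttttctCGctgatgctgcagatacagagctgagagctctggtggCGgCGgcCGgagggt
Mex3b: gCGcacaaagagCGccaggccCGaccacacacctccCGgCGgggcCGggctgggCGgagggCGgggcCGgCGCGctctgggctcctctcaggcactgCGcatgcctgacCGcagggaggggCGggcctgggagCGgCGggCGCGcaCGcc
Bahcc1: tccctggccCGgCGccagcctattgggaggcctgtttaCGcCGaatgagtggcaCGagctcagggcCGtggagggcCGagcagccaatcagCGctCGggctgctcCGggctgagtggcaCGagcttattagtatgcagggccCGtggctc
Marcks: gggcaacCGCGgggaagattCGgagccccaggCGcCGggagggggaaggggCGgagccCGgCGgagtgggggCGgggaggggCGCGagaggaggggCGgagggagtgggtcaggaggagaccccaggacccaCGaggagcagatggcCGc
Zic2: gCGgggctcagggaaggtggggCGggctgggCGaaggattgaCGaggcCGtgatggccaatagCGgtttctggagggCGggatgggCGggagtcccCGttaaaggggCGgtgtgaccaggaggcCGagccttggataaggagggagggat
These 6 peaks of 150 bp held between 9 CpGs (Tnrc18) and 19 CpGs (Mex3b). Their GC content ran from 56% at Tnrc18 to 80% at Mex3b. The GC box GGGCGG, counted on both strands, occurred 4 times in the Zic2 peak and 3 times each in the Mex3b and Marcks peaks. The CCAAT box occurred 2 times each in the Tnrc18 and Bahcc1 peaks.

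The distal peaks came from a region upstream of Slc38a10 (chr11:120189956-120190105, 38685 bp from its TSS, with the non-coding gene 2810410L24Rik starting 1280 bp away) and from an intron of Nkx6-1 (chr5:101659716-101659865, 5205 bp downstream of its TSS). A peak from the member with the lowest CpG ratio, in an intron of Pde1b (chr15:103519436-103519585, 4591 bp downstream of the TSS), is shown beside them as a contrast and was chosen for that ratio.
Upstream of Slc38a10: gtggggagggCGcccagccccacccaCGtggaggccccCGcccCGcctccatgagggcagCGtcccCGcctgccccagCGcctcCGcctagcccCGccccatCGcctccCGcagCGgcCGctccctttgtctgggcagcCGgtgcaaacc
Nkx6-1 intron: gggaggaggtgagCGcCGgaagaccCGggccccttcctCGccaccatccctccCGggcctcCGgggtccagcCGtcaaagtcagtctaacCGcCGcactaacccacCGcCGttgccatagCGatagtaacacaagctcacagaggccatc
Pde1b intron: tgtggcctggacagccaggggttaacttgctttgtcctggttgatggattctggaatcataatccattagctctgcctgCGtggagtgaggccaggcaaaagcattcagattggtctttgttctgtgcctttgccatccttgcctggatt
The first held 14 CpGs and the second 12, within the range of the peaks at TSSs. The Pde1b peak held 1 CpG at a GC content of 50%, and its signal was 109 in replicate 1 and 40 in replicate 2.

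The replicates differed in how many wide hotspots they had. Replicate 1 held 3895 hotspots of 1500 bp or more (1.48% of its hotspots), and replicate 2 held 11460 (3.10%), a ratio of 2.94 and a mean of 7677.5 ± 5349.26 (SD, n = 2). Of the wide replicate 1 hotspots, 85.1% were members. Of the wide replicate 2 hotspots, 28.7% had a wide partner in replicate 1, so replicate 1 set the size of the shared group. Another 434 wide replicate 1 hotspots overlapped only narrower replicate 2 hotspots, and 145 overlapped none. The replicates were sequenced on different Illumina instruments, and read depth is unknown, so the part of either in this difference was not tested.

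Within the shared group the replicates ranked the regions alike only in part. The median width was 1866.5 bp in replicate 1 and 2365.5 bp in replicate 2, a mean of 2116 ± 353 bp (SD, n = 2), and 84.9% of members were wider in replicate 2. Across the 3316 members the widths had a Spearman correlation of 0.49, a description of points that share both libraries. By the smaller of both widths, 2122 members measured 1500 to under 2000 bp and the other 1194 measured 2000 bp or more, of which 195 measured 3000 bp or more and 39 measured 4000 bp or more. Just inside the threshold, at 1500 bp in replicate 1, lay members near Pea15a, Oxr1 and Haao, 3 of the 7 with that exact smaller width. Just outside, 1 bp under the threshold in 1 replicate, lay the promoter hotspots of Dicer1, Ebag9 and Pcbp2. The strongest peaks of these examples were 73 to 122 inside and 134 to 138 outside in replicate 1, and 50 to 90 inside and 72 to 104 outside in replicate 2.

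**Figure D1:**
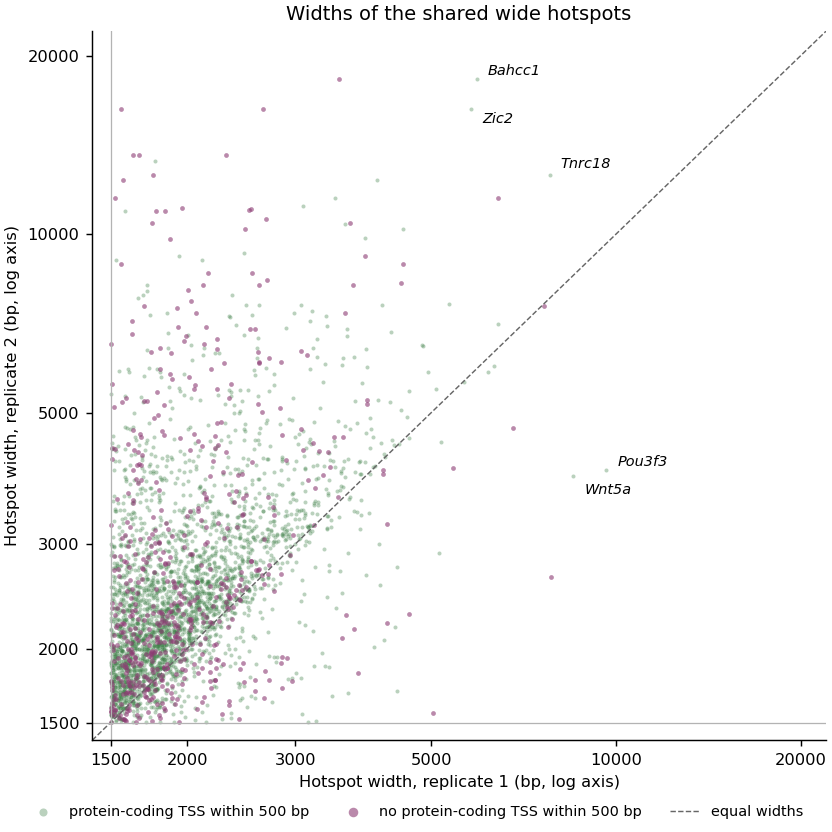
Widths of the 3316 shared wide hotspots in replicate 1 (x axis) and of their replicate 2 partners (y axis), in bp on log axes; green points have a protein-coding TSS within 500 bp, purple points do not, and grey lines mark the 1500 bp threshold. Most points lie above the dashed line of equal widths, since 84.9% were wider in replicate 2, while Pou3f3 and Wnt5a lie far below it.

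The 12 widest regions were taken by the smaller of both widths. Among them Tnrc18, which encodes a chromatin-associated protein with a BAH domain, came first with 7797 bp in replicate 1 and 12593 bp in replicate 2 (chr5:142816854-142824650). It held 15 replicate 1 peaks and 17 replicate 2 peaks, with a strongest signal of 127 and 85. The region reached from the TSS upstream, with its midpoint 3090 bp away. The related gene Bahcc1, which also encodes a BAH domain protein, measured 5936 bp in replicate 1 and 18281 bp in replicate 2. The distal region between Bahcc1 and Slc38a10 measured 7624 and 7570 bp, and both lay in 1 group of 4 members over 55.1 kb of chromosome 11.

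Neural transcription factors were among the 12. Zic2, a zinc-finger factor of the dorsal neural tube, measured 5807 bp in replicate 1 and 16292 bp in replicate 2, with 12 peaks in each. Zic1, its relative, measured 5661 and 5643 bp, with the midpoint 3075 bp downstream of the TSS. Tgif1, a homeodomain factor that limits Nodal signalling, measured 5336 and 7636 bp. The other regions of the 12 widest lay at Pcdh7 (a protocadherin, 6413 and 7066 bp), Mex3b (an RNA-binding protein, 6319 and 5996 bp), Marcks (a membrane-associated actin regulator, 6189 and 5856 bp), Efna5 (an ephrin of the tectum, 5098 and 5480 bp), Adgrl2 (an adhesion receptor, 4939 and 5861 bp) and the gene body of Nkx6-1. Nkx6-1, a homeodomain factor of ventral neural progenitors, had a run of 4 members. The TSS member measured 3488 bp, the one over the downstream part of the gene 6430 bp, and one 18068 bp downstream 7837 bp in replicate 1 and 2636 bp in replicate 2. The first of these, the second and a member of 1527 bp upstream of the gene fell into a single replicate 2 hotspot of 11519 bp at Nkx6-1.

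Some regions of many peaks were wide in replicate 1 and much narrower in replicate 2. At Pou3f3, a POU factor of neural progenitors (chr1:42691095-42700746), the replicate 1 hotspot was the widest of all members at 9652 bp and the replicate 2 partner measured 4007 bp. The same stretch held 17 replicate 1 peaks and 16 replicate 2 peaks, of which 13 in each overlapped a peak of the other replicate. At Wnt5a, a Wnt ligand, the widths were 8527 and 3904 bp with 14 and 16 peaks. At Pou3f3 and Wnt5a the peak counts over the stretch were thus alike while the replicate 2 hotspot covered part of it. The region 18068 bp downstream of Nkx6-1, by contrast, held 19 replicate 1 peaks and 10 replicate 2 peaks.

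**Figure D2:**
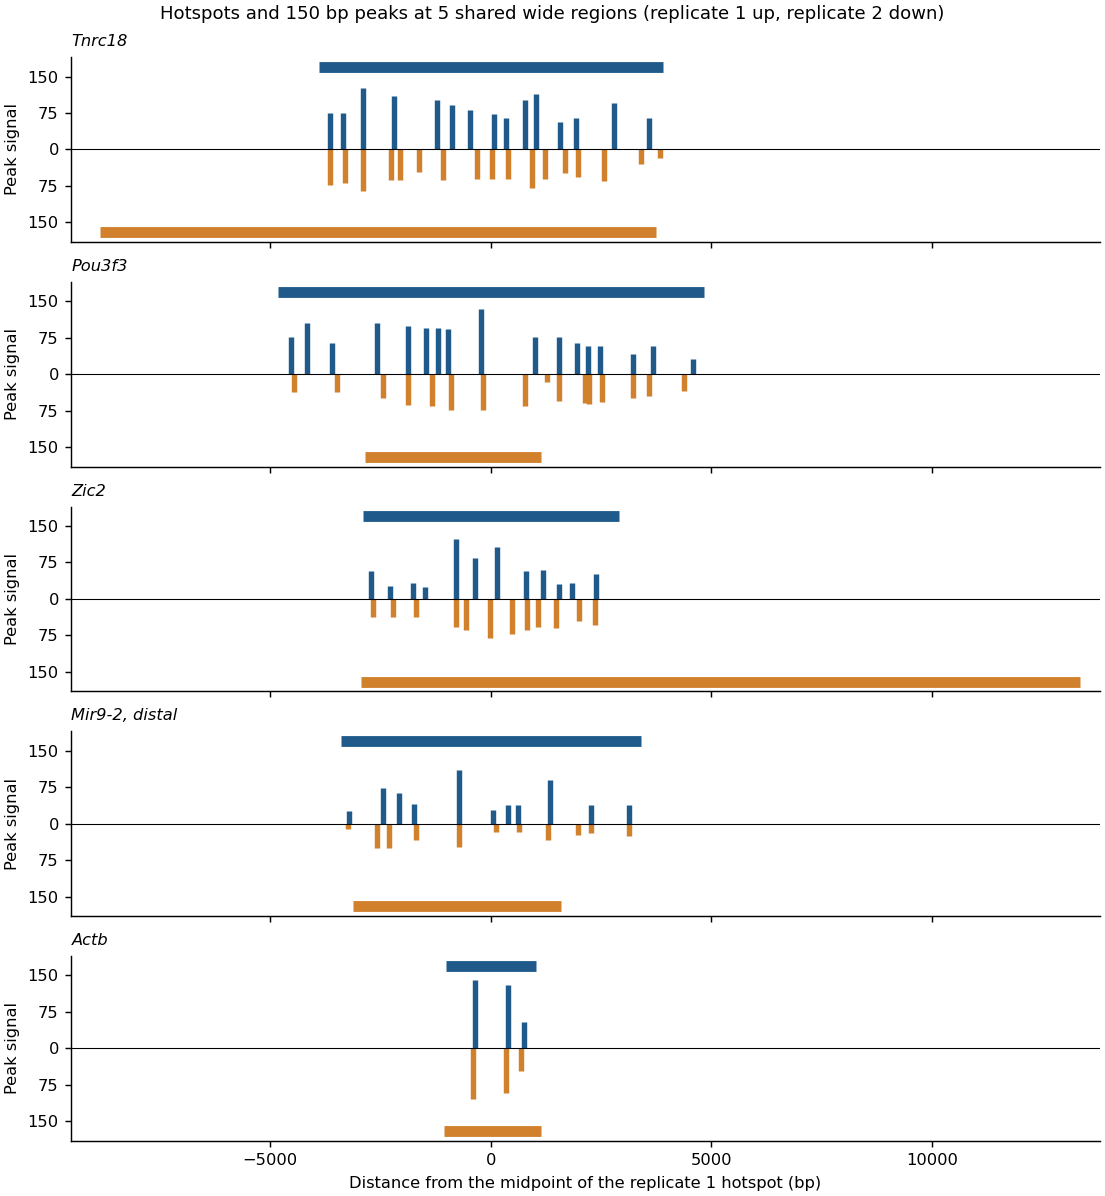
Hotspots (horizontal bars) and 150 bp peaks (vertical lines, height is the deposited signal) at Tnrc18, Pou3f3, Zic2, a distal region at Mir9-2 and Actb, against the distance in bp from the midpoint of the replicate 1 hotspot; replicate 1 points up and replicate 2 down, and peaks are drawn within the replicate 1 hotspot. Tnrc18 and Pou3f3 hold 15 to 17 peaks in each replicate and Actb 3, and the Zic2 bar of replicate 2 (16292 bp) runs far past that of replicate 1 (5807 bp).

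A typical member held 3 peaks. Counting peaks whose midpoint lay in the replicate 1 hotspot, members held 11596 replicate 1 peaks and 10623 replicate 2 peaks, or 3.50 and 3.20 per member (mean 3.35 ± 0.207 SD, n = 2). One peak was found in 2.47% of members in replicate 1 and 6.72% in replicate 2, and 5 or more in 18.2% and 14.8%. Neighbouring peaks lay 480 bp apart by median in both replicates, with quartiles of 360 and 640 bp in replicate 1 and 340 and 640 bp in replicate 2. Peaks covered 25.3% and 23.0% of the bases of members. The strongest peak lay in the central 50% of the hotspot in 76.1% of members in replicate 1 and 79.7% in replicate 2. The second strongest was close behind it, at a median of 74.2% and 82.6% of its signal.

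Peaks in members were strong and often overlapped a peak of the other replicate. By median, the deposited signal of these peaks reached 73 (replicate 1) and 57 (replicate 2), against 17 and 8 for peaks elsewhere. The signal has no stated normalization, so the replicates' levels are not compared. In replicate 1, 66.3% of peaks in members overlapped a replicate 2 peak, against 29.3% of peaks elsewhere, and in replicate 2 the shares were 73.3% and 20.2%. An overlap of 1 bp was enough, and peaks lie densely in members, at 1.69 per kb in replicate 1 and 1.55 in replicate 2. The part of this density in the overlap was not tested. Members held 3.86% of replicate 1 peaks but 37.5% of those at or above the 99th percentile of signal (129), and in replicate 2 they held 2.37% of peaks and 36.2% of those at or above 79. These peaks were called from the same reads as the hotspots that chose the members, so the difference is a description.

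Among members, width was tied to the number of peaks more than to the strongest signal. Replicate 1 width correlated with the number of replicate 1 peaks (Spearman correlation 0.65) and hardly with the strongest signal (0.03, both across the 3316 members of 1 library). Members start at 1500 bp, and their strongest replicate 1 signals had quartiles of 104 and 131, near the highest of all peaks (148). Over replicate 1 hotspots that overlapped a replicate 2 hotspot, the median strongest signal rose with width. It was 22 and 0 under 250 bp, 75 and 39 at 500 to under 1000 bp, and 121 and 76 in members. Members of 4000 bp or more in both replicates had a median of 9 and 8 peaks and a median strongest signal of 123 and 74. Those of 1500 to under 2000 bp had 3 and 3 peaks and a strongest signal of 121 and 76. The number of peaks per kb rose slightly with width, at 1.82 and 1.66 in replicate 1 for these classes and 1.76 and 1.51 in replicate 2.

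The 8 members of highest mean signal measured 1889 bp (Chka) to 4298 bp (Brd2) in replicate 1. Tob1, an antiproliferative regulator, had replicate 1 peaks of 127, 140 and 91 and replicate 2 peaks of 50, 53, 55, 115 and 65, in hotspots of 2318 and 2406 bp. Kmt2a, a histone H3 lysine methyltransferase, reached 138 and 115. Pgrmc2, a haem-binding membrane protein, reached 141 and 108. Rnf44, a RING finger protein, reached 137 and 111. Brd2, a BET family reader of acetylated histones whose member also takes in the TSS of H2-DMa, reached 135 and 112. Arhgap5, a GTPase activating protein, reached 140 and 106, and Chka, a choline kinase, reached 139 and 107. The only one of the 8 without a protein-coding TSS lay at the non-coding gene 1700028E10Rik, 59504 bp from Gm42906, and reached 144 and 104. At the other end, the member 1388 bp upstream of Mterf1b had peaks of 7, 11, 5 and 11 in replicate 1 and 8, 8, 15, 13 and 7 in replicate 2. Its replicate 1 values all lay below the median of all replicate 1 peaks (18). Masked repeats made up 34.5% of its bases, against a median of 7.99% over members.

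Most members lay at promoters. A protein-coding TSS lay within 500 bp of 2739 members (82.6%), against 19.1% of all 96281 replicate 1 hotspots that overlapped a replicate 2 hotspot, called shared hotspots here. The share was 10.3% for shared hotspots under 250 bp, 8.38% at 250 to under 500 bp, 30.9% at 500 to under 1000 bp and 63.0% at 1000 to under 1500 bp. A wider interval meets a TSS more often by its length alone. The midpoint of the hotspot, which does not grow with width, lay within 500 bp of a protein-coding TSS in 69.8% of members and 16.8% of shared hotspots. By this measure the class nearest in width, 1000 to under 1500 bp, stood at 59.4%, and that of 500 to under 1000 bp at 28.3%. Wide hotspots that replicate 2 had narrower were unlike members: 32.03% of the 434 lay at a protein-coding TSS. None of the 145 wide hotspots without a replicate 2 hotspot did.

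**Figure D3:**
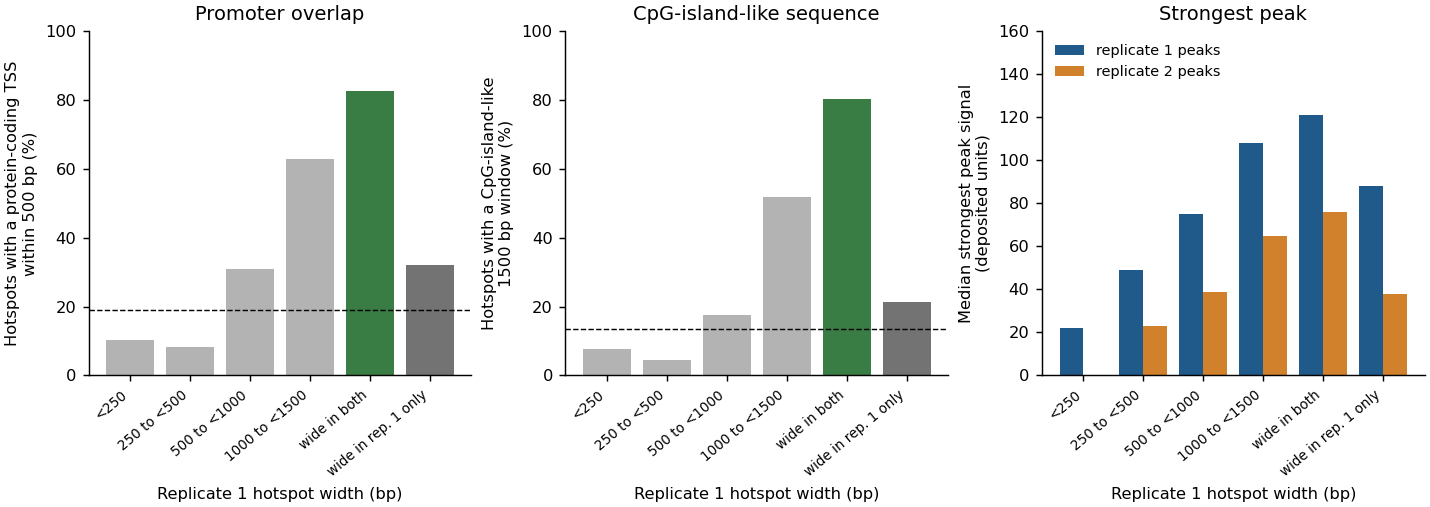
Share of shared replicate 1 hotspots with a protein-coding TSS within 500 bp (left, %), share with a CpG-island-like 1500 bp window (centre, %) and median strongest peak signal (right, deposited units, by replicate) in classes of replicate 1 width; "wide in both" are the members, "wide in rep. 1 only" the 434 that overlap a narrower replicate 2 hotspot, and dashed lines give all shared hotspots. Members stand at 82.6%, 80.4% and signals of 121 and 76, above every narrower class.

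Members reached farther downstream of the TSS than upstream. In the 2381 members with TSSs of 1 protein-coding gene inside, the replicate 1 hotspot extended a median of 753 bp upstream of the TSS and 1161 bp downstream, and it was longer downstream in 73.04%. In shared hotspots of 1000 to under 1500 bp the medians were 468 and 730 bp, and 74.9% were longer downstream. More than 1 TSS of the gene lay in 49.2% of these members and 45.8% of that narrower class. There the split into upstream and downstream depends on which TSS is taken. Of the bases of members, 39.96% were intergenic, 36.7% intronic, 15.1% in exons outside coding sequence and 8.19% in coding exons of protein-coding genes, against 61.1%, 36.0%, 1.49% and 1.39% of chromosomes 1 to 19.

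Away from the TSS, members held more peaks than narrower hotspots on both sides, but they held fewer in the 200 bp just downstream of it. In the 200 bp just upstream of the TSS, members had 66.1 replicate 1 peaks per 100 hotspots and shared hotspots of 1000 to under 1500 bp had 66.3. In the 200 bp just downstream they had 25.4 and 29.1, and from 200 to 400 bp downstream 25.9 and 28.5. From 600 to 800 bp downstream the values were 35.7 and 25.5, and from 1000 to 1200 bp downstream 28.5 and 15.2. From 800 to 1000 bp upstream they were 21.3 and 10.3. Members were chosen for their width and reach farther on both sides of the TSS, so the flanking values of either replicate are a description. Replicate 2 peaks gave 54.4 and 50.3 just upstream of the TSS and 20.5 and 17.2 from 800 to 1000 bp upstream. Downstream they gave 34.9 and 40.8 in the first 200 bp, 29.6 and 26.7 from 200 to 400 bp, and 29.5 and 19.1 from 600 to 800 bp. In members, a trough lay between the peak at the TSS and the downstream shoulder in both replicates, and before the upstream shoulder in replicate 1. Upstream in replicate 2 the dip was shallow, at 18.7 from 400 to 600 bp against 20.5 from 800 to 1000 bp.

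**Figure D4:**
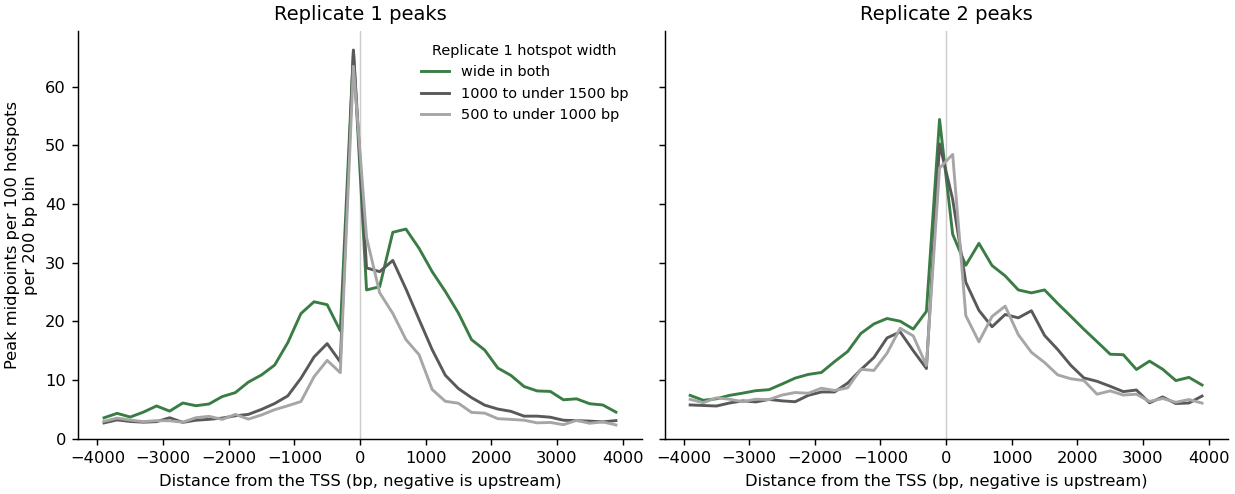
Peak midpoints per 100 hotspots in 200 bp bins against the distance from the TSS in bp (negative is upstream), for replicate 1 peaks (left) and replicate 2 peaks (right), in hotspots with TSSs of 1 protein-coding gene inside. Members (green) and the class of 1000 to under 1500 bp (dark grey) have nearly the same height just upstream of the TSS in replicate 1 (66.1 and 66.3). Members, which were chosen for their width, are higher on both shoulders and lower in the 200 bp just downstream of the TSS.

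Some members lay at the TSSs of more than 1 gene. TSSs of 2 protein-coding genes lay within 500 bp of 309 members, and of 3 genes within 500 bp of 8. Members differed little in this from the next narrower class. TSSs of 2 or more genes lay at 11.6% of promoter members and 10.8% of promoter hotspots of 1000 to under 1500 bp. The share was 7.75% at 500 to under 1000 bp. Of 307 members with a pair of genes that could be oriented, 205 (66.8%) pointed away from each other. No such share is at hand for narrower hotspots. Examples are Hnrnpa2b1, an RNA-binding protein gene, with Cbx3, a heterochromatin protein gene (3197 and 3384 bp), and Fgfr2, a fibroblast growth factor receptor gene, with Ctbp2, a corepressor gene (3920 bp in replicate 1). A count per gene assigns such a member to each of its genes.

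CpG content set members apart from the other hotspots, and the rule did not use it. The median CpG ratio was 0.739 and the median GC content 60.6%, against 0.307 and 50.5% in all shared hotspots. To compare widths on equal terms, a window of fixed length, 1500 bp at the hotspot's midpoint, was called CpG-island-like where GC content was at least 50% and the CpG ratio at least 0.6. This held for 2667 members (80.4%), against 13.5% of all shared hotspots. By width the shares were 7.66%, 4.41%, 17.5% and 51.9% in the 4 narrower classes, and 21.4% in the 434 hotspots that were narrower in replicate 2. The middle 50% of members had a CpG ratio from 0.618 to 0.832, and the range was 0.0688 to 1.14. Width within the group made little difference, with medians of 0.740 at 1500 to under 2000 bp and 0.748 at 4000 bp or more.

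At promoters the shares were high in narrower hotspots too, and members still stood above them. CpG-island-like windows were found at 90.4% of promoter members, 75.7% of promoter hotspots of 1000 to under 1500 bp, 46.8% of those of 500 to under 1000 bp and 29.6% of those of 250 to under 500 bp. CpG was richer under the peaks than between them: merged peaks of both replicates in members had a CpG ratio of 0.755 and 7.44 CpGs per 100 bp, and the bases between them 0.708 and 5.90. Members with a higher CpG ratio tended to have a stronger top peak, with a Spearman correlation of 0.30 in replicate 1 and 0.49 in replicate 2 across the 3316 members.

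Short motifs were counted in the replicate 1 peaks. The GC box GGGCGG, read by Sp and Klf factors, occurred in 43.3% of replicate 1 peaks in promoter members, 40.6% of those in narrower shared promoter hotspots and 7.96% of all replicate 1 peaks. The ETS site CCGGAAG occurred in 4.31% of peaks in promoter members and 9.23% in narrower promoter hotspots, and the NRF1 site GCGCATGCG in 1.17% and 1.57%. The CCAAT box, bound by NF-Y, occurred in 19.2% and 20.7%, and the SOX site ACAAAG in 9.68% and 7.59%. Median GC content was 65.3% in the first set and 63.3% in the second. Every motif was searched in 150 bp on both strands, CpG lies inside the GC box, the ETS site and the NRF1 site, and all 300618 replicate 1 peaks served as the background of equal length. A match is a run of letters and not a bound site. The shares are per peak and not per promoter. Promoter members held a median of 3 replicate 1 peaks, and the narrower classes of shared hotspots a median of 1 or 2. A lower share of peaks is therefore not a lower share of promoters with the motif, which was not counted.

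A smaller group of members had no promoter. Distal members had no protein-coding TSS inside or within 2.5 kb of their edges and numbered 476 (14.4%), against 68.7% of all shared hotspots, and 122 members lay over 100 kb from any protein-coding TSS. Of the distal ones, 116 lay within 500 bp of the TSS of another annotated gene. They had as many peaks as promoter members, a median of 3 and 3, with a strongest signal of 107 and 57 by median, against 124 and 79 at promoters. Their median CpG ratio was 0.443 and GC content 52.7%, between promoter members (0.763 and 61.5%) and the distal shared hotspots of 1000 to under 1500 bp. In the fixed window the ratio was 0.469 for distal members and 0.308 for that narrower class, and 29.2% against 9.07% were CpG-island-like. The share was 50.9% where another annotated gene started and 22.2% where none did. Of the 152 members with a CpG ratio under 0.3, 130 were distal.

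Beside the regions near Slc38a10 and in Nkx6-1, wide distal regions lay at non-coding RNA genes and at Sp9. The region at Mir9-2, which encodes the neural microRNA miR-9, lay 164804 bp from the nearest protein-coding TSS, that of Mef2c. It measured 6797 bp in replicate 1 and 4712 bp in replicate 2, with 11 peaks in each, at a CpG ratio of 0.376. A region 6008 bp downstream of the TSS of Sp9, a zinc-finger factor of forebrain interneurons, measured 4463 and 8275 bp with 6 and 8 peaks. A region in the Miat locus, which encodes a long non-coding RNA, measured 5419 and 4031 bp with 9 and 13 peaks. In distal members, the SOX site ACAAAG occurred in 16.9% of replicate 1 peaks, against 17.4% in narrower distal hotspots and 15.1% of all peaks. The E-box CAGATG of proneural factors occurred in 13.6%, 15.6% and 14.0%, the POU octamer ATGCAAA in 4.18%, 3.69% and 3.61% and the homeodomain site TAATTA in 3.16%, 3.69% and 4.43%. The GC box differed most, at 20.7% of peaks in distal members against 7.74% in narrower distal hotspots, and the CTCF core CCACNAGGG stood at 1.19% against 3.13%. Median GC content was 55.3% and 50.7% in these sets, and its part was not tested.

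Members also lay in runs along the chromosome. With gaps of 50 kb or less, 710 members fell into 303 groups of 2 or more, and 2606 (78.6%) stood alone. Groups of 7 members lay at Zic2 and Zic5 (41.8 kb), at the Polg locus that also holds the miR-9 host gene Mir9-3hg (71.3 kb, 6 of them distal) and at Pou3f2, a POU factor of neural progenitors (22.5 kb, 5 distal). Groups of 5 lay around Mir9-2 (30.9 kb, all distal), Sox1 (48.1 kb, 4 distal) and Nr2f2 (37.4 kb, 3 distal), and groups of 4 at Pax6, Zic1 and Nkx6-1, among others. A wide stretch broken in 1 replicate counts as several members: 110 members shared their replicate 2 partner with another member.

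Of 20807 protein-coding genes on chromosomes 1 to 19, 3020 (14.5%) had a member within 500 bp of a TSS. Among the 13811 genes with a shared hotspot of any width there, the share was 21.9%. The 19 gene lists used next were chosen with earlier results of these data known and were not tested. They are described against these shares, and a list near them shows nothing about the list. Because the rule demands both replicates, a gene missed in 1 of them is not counted.

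A member lay at 19 of 27 genes of neural progenitors (70.4%), by smaller width Zic2, Zic1, Vim, Id2 and then Sox2, Pou3f3, Pax6, Sox21, Sox1, Id4, Rfx4, Hes1, Gli3, Pou3f2, Prom1, Zic5, Hes5, Dll1 and Id1. Vim, an intermediate filament gene of progenitors, measured 5178 and 4465 bp with 8 peaks in each. Id2, an inhibitor of proneural factors, measured 4154 and 7591 bp. Sox2, the SOX factor that maintains progenitors, measured 4082 and 12338 bp, with 9 and 6 peaks and a strongest signal of 134 and 83. Where each hotspot of a pair had to overlap the other by 50%, the count was 11 of 27 (40.7%), against 13.4% of all protein-coding genes. Median peak counts over these genes' members were 6 and 6, against 3 and 3 over all genes with a member. Neuronal genes had a member at 13 of 27 (48.1%), led by Sox11 (4310 and 4495 bp) and Ebf2 (3617 and 10385 bp), factors of young neurons. With an overlap of 50% of each hotspot the neuronal count was 10 of 27 (37.0%). Stmn1, a microtubule regulator, measured 2723 and 3458 bp, and Sox4 2603 and 2679 bp.

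The lists of chromatin regulators and signalling genes differed in how far their counts depended on the overlap asked for. A member lay at 22 of 30 chromatin regulators (73.3%), and at 21 of 30 (70%) with an overlap of 50% of each hotspot. Brd2 measured 4298 and 6834 bp and Kmt2a 3100 and 4230 bp. Chd7, a chromatin remodeller, measured 3409 and 2764 bp at a CpG ratio of 1.08, and Ezh2, the Polycomb methyltransferase, 2485 and 2533 bp. Of 32 signalling genes, 20 had a member (62.5%), and 11 (34.4%) with that overlap. They included Efna5, Fgfr2, Wnt5a and Fzd10, a Wnt receptor gene (3897 and 9872 bp), with Smad6, Jag1, Axin2, Ptch1, Lef1, Tcf7l2 and Smo among the rest. Immediate early genes had a member at 12 of 22 (54.5%), and at 8 of 22 (36.4%) with that overlap. Jun, an AP-1 subunit, measured 4354 and 4411 bp with a strongest signal of 147 in replicate 1. Myc measured 4284 and 5201 bp, Zfp36l1 3577 and 6011 bp, and Egr1 2417 and 3619 bp.

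Highly expressed housekeeping genes were not alike. A member lay at 12 of 24 general housekeeping genes (50%), such as Pfn1 (2975 and 3656 bp), Hsp90ab1 (2261 and 2630 bp) and Actb (2038 and 2193 bp). Actb, which encodes beta-actin, had replicate 1 peaks of 140, 131 and 54 and replicate 2 peaks of 105, 91 and 47, each overlapping a peak of the other replicate. Ribosomal protein genes, in contrast, had a member at 1 of 28 (3.57%), although all 28 had a shared hotspot at the TSS. Their widest TSS hotspots had a median of 929 bp in replicate 1 and 1346.5 bp in replicate 2, against 1032 and 1574 bp over all genes with a shared hotspot. The exception, Rpl7, shares its member with the TSS of Rdh10, a retinol dehydrogenase gene, so it cannot be assigned to Rpl7. At a minimum of 1000 bp in both replicates, 11 of the 28 ribosomal protein genes (39.3%) had a region, against 34.5% of all genes. Cell cycle genes had a member at 7 of 26 (26.9%), led by Ccnd1 (3385 and 7003 bp), Ccne2, Rrm2 and E2f1. Histone genes had one at 5 of 25 (20%), namely Hist2h4, Hist1h1b, Hist1h1e, Hist1h4d and Hist1h1c. Neighbouring histone genes lie close together, and the member at Hist1h1e also takes in Hist1h2be.

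Both lists of midbrain genes held members. Of 25 midbrain and isthmus genes, 7 had a member (28%), namely Dusp6, Barhl2, Spry2, Spry4, Gbx2, Meis2 and En2. With an overlap of 50% of each hotspot, 6 did (24%). Dusp6 and Spry2, feedback inhibitors of fibroblast growth factor signalling, measured 3253 and 4080 bp and 2461 and 3981 bp. Gbx2, which sets the border of midbrain and hindbrain, measured 1707 and 3700 bp, and En2, an engrailed factor of the midbrain, 1527 and 2520 bp. Of 22 genes that specify midbrain neurons, 7 had a member (31.8%), among them Sox14, Nkx6-1, Neurog2, Pou4f1 and Nr4a2. With an overlap of 50% of each hotspot, 4 did (18.2%). Over all protein-coding genes the share was 14.5%, and 13.4% with that overlap. Among genes with a shared hotspot at a TSS, the shares of these lists were 30.4% and 33.3%, against 21.9% over all such genes. Neurog2, a proneural factor, measured 3830 and 3182 bp. Pou4f1, a factor of tectal neurons, measured 1968 and 2487 bp, and Nr4a2, a factor of dopamine neurons, 1627 and 2767 bp.

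In replicate 2 alone, a hotspot of 1500 bp or more lay at 23 of the 25 midbrain and isthmus genes (92%) and at 22 of the 22 midbrain neuron genes, against 36.3% of all protein-coding genes. In replicate 1 alone it was 8 (32%) and 7 (31.8%), against 15.2%. The widest TSS hotspots of the midbrain neuron genes with a shared hotspot had a median of 947 bp in replicate 1, below the 1032 bp over all such genes, and 6831 bp in replicate 2, against 1574 bp. Forebrain patterning genes showed the same split, with 4 of 21 (19.05%) shared, namely Dlx5, Tbr1, Lhx8 and Nkx2-1, and 20 of 21 (95.2%) wide in replicate 2. The list of non-neural lineage factors had 1 shared, Runx1, and 21 of 28 (75%) wide in replicate 2. Ribosomal protein genes did not follow, with 9 of 28 (32.1%) wide in replicate 2. The larger number of wide hotspots in replicate 2 thus fell unevenly over the lists. The part of sequencing depth, instrument or embryo pool in it was not tested.

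**Figure D5:**
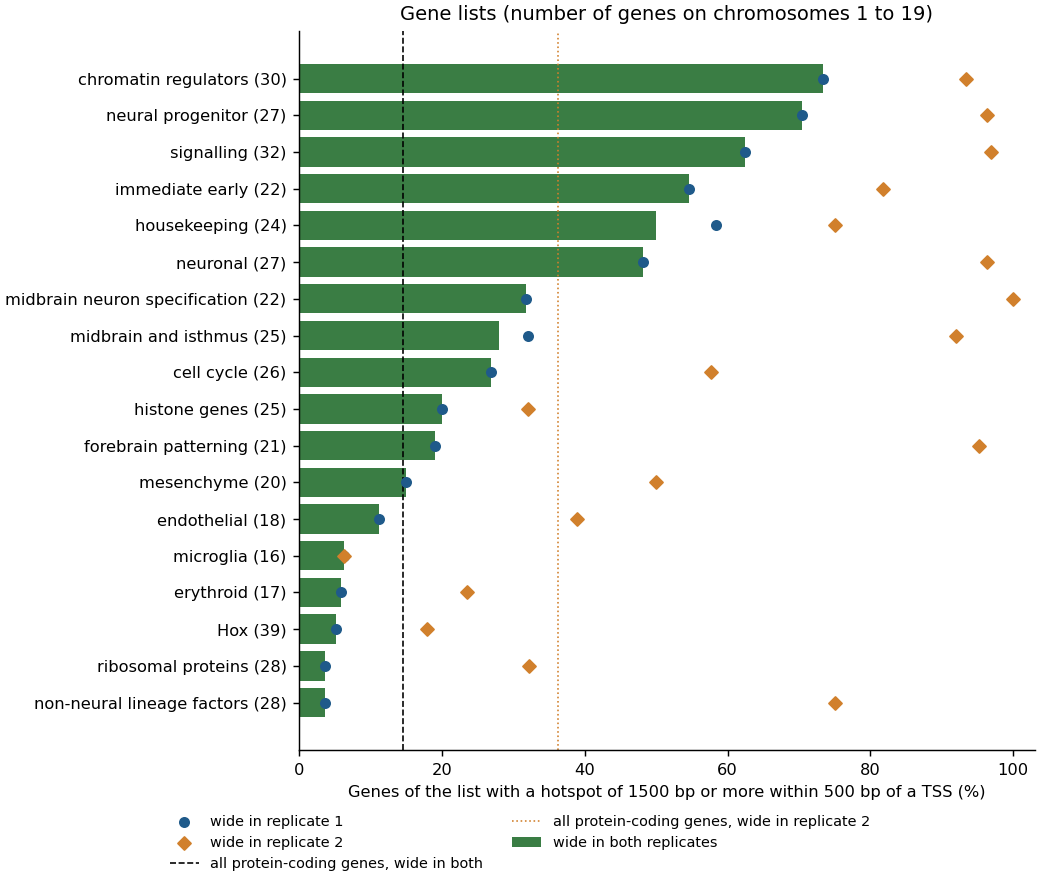
Share of each gene list (%) with a hotspot of 1500 bp or more within 500 bp of a TSS: wide in both replicates (green bars), in replicate 1 (blue circles) and in replicate 2 (orange diamonds), with the number of genes in brackets and lines for all protein-coding genes wide in both (14.5%) and in replicate 2 (36.3%). Circles sit at the ends of most bars, while diamonds reach 92% to 100% for the midbrain lists and 32.1% for ribosomal protein genes.

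Of the 4 members at forebrain genes, 3 had a strongest replicate 1 signal of 34 to 67. Nkx2-1, a ventral forebrain factor, had replicate 1 peaks of 30, 27, 31, 34, 34 and 33 and replicate 2 peaks of 60, 61 and 55, in hotspots of 1824 and 2622 bp. Dlx5 measured 4183 and 4259 bp with a strongest signal of 67 and 54, and Tbr1 2831 and 4785 bp with 44 and 73. The other, Lhx8, measured 2718 and 5435 bp with a strongest signal of 113 and 77. The median strongest signal over the 4 forebrain members was 55.5 in replicate 1 and 67 in replicate 2, against 125 and 80 over all genes with a member. Sox14, a factor of midbrain inhibitory neurons, measured 4501 and 10194 bp with a strongest signal of 54 and 47.

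The lists of Hox genes and of other cell types in the tissue are read against the 14.5% of all protein-coding genes and the 21.9% of those with a shared hotspot. A member lay at 2 of 39 Hox genes (5.13%), Hoxd3 (2531 and 1789 bp, strongest signal 53 and 47) and Hoxa2 (1774 and 13282 bp, strongest signal 106 and 51). With an overlap of 50% of each hotspot the Hox count was 0 of 39. The lists of other cell types in the tissue gave 1 of 17 erythroid genes (5.88%, Ank1), 2 of 18 endothelial genes (11.1%, Mfsd2a and Kdr), 1 of 16 microglial genes (6.25%, Mertk) and 3 of 20 mesenchymal genes (15%, Foxd1, Alx1 and Tfap2a). A shared hotspot of any width lay at 7 of the 17 erythroid, 11 of the 18 endothelial, 4 of the 16 microglial and 16 of the 20 mesenchymal genes. It lay at 23 of the 25 midbrain and isthmus genes and all 27 progenitor genes, but also at 19 of the 21 forebrain genes and at 13811 of all 20807 protein-coding genes. Among the genes of a list with a shared hotspot, a member lay at 14.3% (erythroid), 18.2% (endothelial), 25% (microglial), 18.75% (mesenchymal) and 8% (Hox), against 21.9% over all. Which cells carried each site was not measured.

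Non-coding genes had members too. Of 21 listed non-coding RNA genes on these chromosomes, 9 had a member (42.9%), against 2.71% of the 30422 annotated genes that are not protein-coding. Only 4422 of those 30422 had a shared hotspot of any width at a TSS, and 18.7% of these had a member. For the list, 20 genes had such a hotspot, and 45% of these had a member. The 9 genes were Sox2ot, Mir9-3hg, Dleu2, Miat, Gas5, Malat1, Mir124a-1hg, Neat1 and Rmrp. The Sox2ot region measured 3894 bp in replicate 1 and 9175 bp in replicate 2 and lay 12529 bp from the Sox2 TSS. The Mir9-3hg region measured 3726 and 8202 bp, and the one at the Miat TSS 2594 and 2713 bp. Of the 577 members without a protein-coding TSS, 132 lay at another annotated TSS, of long non-coding RNA classes in 109 and of a microRNA in 12.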

How the data were processed

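DNase-seq lists of 2 biological replicates on mm10 were used. Per the deposited file records, each list was made from that replicate's own alignments. Aligner and caller were not given in the sources used here. Peaks carry the signal value deposited by the authors, whole numbers from 1 with no stated normalization. Hotspots carry a deposited −log10 q-value, with a ceiling of 100, and a deposited score, which was not used. Read depth is unknown, so no counting interval is given.

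Hotspots on chromosomes 1 to 19 were compared with Python 3.11.15, numpy 2.4.6 and pandas 2.3.3. Where several wide replicate 2 hotspots overlapped a member, the partner was the one with the largest overlap. Peaks were counted by midpoint in the replicate 1 hotspot. Sequence and repeat masking came from GRCm38.p6, whose 19 autosomes have the mm10 lengths, and TSSs from GENCODE vM21. Scripts were tested on simulated data.

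The members and the 19 gene lists were chosen with earlier results of these data known. No test was run: there is 1 group, and the widths chose the members. Values are mean ± SD over 2 replicates where given. Named members were the 12 widest by the smaller width, the 8 with most peaks, the 8 with the highest mean strongest signal, the 6 widest distal ones, the 3 with the lowest CpG ratio, the 3 on each side of the threshold and up to 4 per list; further genes of a list are named after their values were seen. Alternatives covered widths, overlap, q-values, single replicates, TSS windows and peak counting. A few items that this rule names are not reported here.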

Additional observations from a re-analysis of the deposited data

Results flagged for a closer look

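On chromosome X, which the rule leaves out, 48 replicate 1 hotspots of 1500 bp or more overlapped such a hotspot of replicate 2. This was noted because it is a signal in data outside the main count. A protein-coding TSS lay within 500 bp of 43 of them. The widest by the smaller width was at Sox3, a SOX factor of neural progenitors, with 6331 bp in replicate 1 and 3612 bp in replicate 2, followed by Usp9x (2867 and 3164 bp). The count came to 50.6 per 1000 protein-coding genes, against 106 on chromosome 7 and 259 on chromosome 18, the lowest and the highest of chromosomes 1 to 19. Each replicate pools male and female embryos, so the number of X copies per sample is not known.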

How the results depend on the processing

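Requiring an overlap of 50% of each hotspot, keeping only hotspots at the q-value ceiling and using the part shared by both hotspots moved none of the 5 main results past its limit, which was 1.5 times for counts and the SD between replicates for the other values. The width minimum and the replicate mattered more. At 1000 bp in both replicates there were 8765 regions, 7185 genes and 2.48 peaks per region. At 2000 bp, with any wide partner counted, there were 1199 regions, 1104 genes and 4.37 peaks per region. Leaving out each replicate in turn gave 3895 to 11460 regions, 3162 to 7553 genes, a promoter share of 61.7% to 73.9%, a median CpG ratio of 0.566 to 0.711 and 3.50 to 3.66 peaks per region. The wide hotspots of replicate 2 alone, used when replicate 1 was left out, gave the lower promoter share and CpG ratio, and the cause was not tested. Of the 42 recomputed values of the 5 main results, 30 stayed within their limit and 12 did not. For the gene lists, an alternative chosen after seeing the data, 95 of 133 recomputed counts stayed within 1.5 times; ribosomal protein genes gave 1 of 28 without replicate 2 and 9 of 28 without replicate 1. No paired analysis was possible because there is 1 group. The unknown read depth limits every count.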
